A study of Mus musculus with 4 samples.

Results

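The genes described here make, store, take up and break down histamine and serotonin, the biogenic amines of mast cells. The members were chosen by gene symbol in the platform annotation: Hdc, Tph1, Ddc, Slc18a2, Slc6a4, Maob and Hnmt. Each of the 7 genes had 1 probe set, out of 22180 genes with an unambiguous symbol and 33793 probe sets in all. The values come from 4 Affymetrix arrays, 1 for each group, of mast cells of BALB/c mice. The cultured cells were bone marrow-derived mast cells (BMMCs), grown for 3 to 4 weeks in interleukin-3 and stem cell factor (both at 10 ng/ml). The control BMMCs were kept for another 6 days in normal medium. The TGF-beta1 group had that cytokine at 5 ng/ml over those 6 days, and the Dll1 group was cocultured over the same time with CHO cells, a hamster line, made to express mouse Dll1, a ligand of Notch receptors. Cells of the Dll1 group were then sorted as c-Kit positive with magnetic beads. The intestinal mast cells were isolated from the small intestinal lamina propria of naive mice and sorted as FceRI and c-Kit positive by flow cytometry. The labels do not give the number of cultures or animals behind an array, nor the age or sex of the mice.

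Histamine is made from histidine in a single step by histidine decarboxylase, encoded by Hdc. Serotonin is made from tryptophan by tryptophan hydroxylase, encoded by Tph1 outside the nervous system, followed by the aromatic amino acid decarboxylase Ddc. Both amines are packed into granules by the vesicular monoamine transporter Slc18a2 and held there by the proteoglycan matrix, to be released when the mast cell is activated. The plasma membrane transporter Slc6a4 takes serotonin back up. Monoamine oxidase B (Maob) and histamine N-methyltransferase (Hnmt) belong to the breakdown of amines, Hnmt by inactivating histamine inside cells. Rodent mast cells are known to hold both amines.

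All values are log2 array values, compared within a gene between arrays and not between genes. Since each group had 1 array, no difference has a replicate error and no p-value was computed. As a gauge, the differences that separate probe sets of a gene gave were compared, and their standard deviation, below called the spread between probe sets, ranged from 0.24 for TGF-beta1 minus control to 0.48 for intestinal minus control, over 309 to 329 genes. It covers neither cultures nor animals. A gene counted as detected above the background limit of its array, which was 5.12 for control, 5.21 for TGF-beta1, 5.13 for Dll1 and 5.11 for intestinal cells, set from receptors of smell and taste. A gene was called higher or lower when 1 or both arrays of a comparison detected it and the difference reached 2-fold, with values under the limit set to the limit. A fold with only 1 side above the limit is a bound, written "at least".

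The mast cell receptor genes Kit, Fcer1a and Ms4a2 and the protease Cpa3 were far above background on all 4 arrays, between 9.98 (Ms4a2, intestinal) and 13.11 (Cpa3, Dll1). The mean of Kit, Fcer1a and Ms4a2 was 0.84 lower (log2) on the intestinal than on the control array, and 0.20 and 0.18 lower on the TGF-beta1 and Dll1 arrays. Other mast cell markers did not share that shift. Intestinal minus control was -0.30 for Cpa3, -0.13 for Gata2 and 0.94 for Itgb7, -4.96 and -5.34 for the proteases Cma1 and Tpsb2, and 6.58 for Mcpt2, while Mcpt1 was below background in control, with a median of -0.30 over the 11 measured markers. Lists of markers of other cells moved with the groups, though some of their genes were detected in control BMMCs too. Of the T and innate lymphoid markers, 4 of 10 were above background in control, the brightest at 11.70. Cdh1, on the epithelial list, read 6.16 in control, 7.57 with TGF-beta1, 6.32 with Dll1 and 10.12 in the intestine. On the Dll1 array 11 of 12 neutrophil markers were above background, with a list mean of 6.74 against 4.97 to 5.07 on the other arrays, and 5 of 7 eosinophil markers were, with a mean of 7.53 against 4.92 to 5.63. On the intestinal array all 10 measured T and innate lymphoid markers were above background (mean 7.84 against 5.51 to 6.41), as were 9 of 11 macrophage and dendritic cell markers (6.90 against 5.57 to 5.68) and 11 of 16 epithelial markers (6.10 against 4.99 to 5.10). Immediate early genes, which respond to handling, had list means of 6.08 (control), 6.03 (TGF-beta1), 8.22 (Dll1) and 10.14 (intestinal). The part of these cells and of handling in the differences below was not tested. In such bulk RNA, fewer cells of a type and less RNA per cell cannot be told apart.

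Control BMMCs had 6 of the 7 genes above background, and the members then took separate courses. Hdc was lowest with TGF-beta1 and highest with Dll1. Ddc was lower on each of the other arrays than in control cells, and lowest in the intestine. Slc6a4 was detected well above background in control BMMCs alone. Tph1, Slc18a2 and Maob were within 1.5-fold of control in both treated cultures and lower in intestinal mast cells, where Maob showed the widest gap, 13.7-fold.

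**Figure D1:**
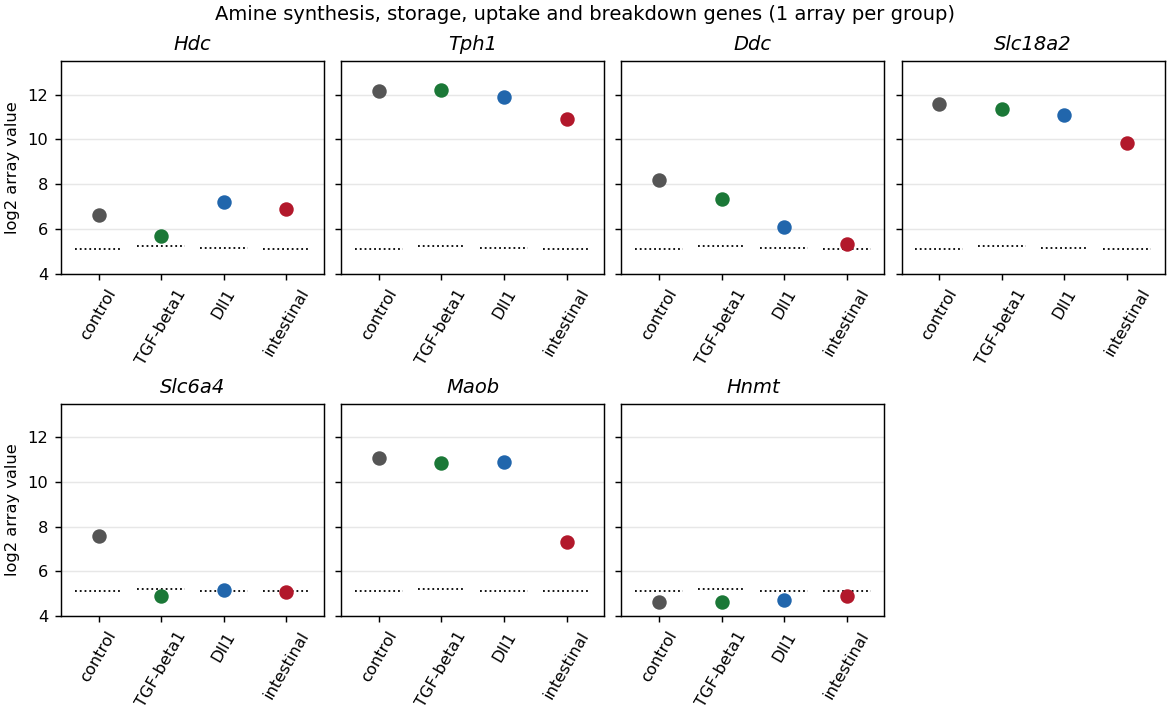
Log2 array value (vertical axis) of the 7 genes in the 4 groups, with 1 point for each array and a dotted line at that array's background limit. Maob stood at 11.09, 10.86 and 10.91 in the cultures and 7.31 in intestinal cells, Slc6a4 was well above the dotted line only in control BMMCs, and Hnmt lay under it on all 4 arrays.

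The promoters of Tph1 and Slc18a2, the pair of members with the most similar profile over the arrays, are shown with those of Slc6a4, which was low in every group but control, and Hdc, which was below control with TGF-beta1 and above it with Dll1. Each is the window from 250 bases before to 50 bases after the annotated start, 5′ to 3′ on the gene's strand, from RefSeq on GRCm38.p6. They lie at chr7:46667328-46667627 (Tph1, minus strand, first of 2 windows), chr19:59260628-59260927 (Slc18a2, plus strand), chr11:76998347-76998646 (Slc6a4, plus strand) and chr2:126618629-126618928 (Hdc, minus strand). Capitals mark the strings searched on both strands.
Tph1: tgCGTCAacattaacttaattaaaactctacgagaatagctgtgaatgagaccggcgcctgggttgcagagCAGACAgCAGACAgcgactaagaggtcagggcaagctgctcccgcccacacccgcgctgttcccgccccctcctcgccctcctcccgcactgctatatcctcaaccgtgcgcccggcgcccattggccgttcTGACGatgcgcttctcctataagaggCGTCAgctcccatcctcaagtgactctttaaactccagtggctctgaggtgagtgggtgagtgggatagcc
Slc18a2: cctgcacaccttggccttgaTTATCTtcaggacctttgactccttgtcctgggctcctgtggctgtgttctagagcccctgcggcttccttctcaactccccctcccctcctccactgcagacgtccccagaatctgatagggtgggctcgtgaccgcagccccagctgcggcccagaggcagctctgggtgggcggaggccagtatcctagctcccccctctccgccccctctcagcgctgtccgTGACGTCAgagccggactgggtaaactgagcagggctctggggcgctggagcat
Slc6a4: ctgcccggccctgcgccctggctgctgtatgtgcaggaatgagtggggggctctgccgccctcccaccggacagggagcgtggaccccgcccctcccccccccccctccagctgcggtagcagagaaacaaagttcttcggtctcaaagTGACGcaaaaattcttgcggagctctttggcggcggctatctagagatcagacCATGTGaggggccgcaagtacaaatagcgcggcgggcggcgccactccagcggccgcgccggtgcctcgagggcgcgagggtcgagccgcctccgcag
Hdc: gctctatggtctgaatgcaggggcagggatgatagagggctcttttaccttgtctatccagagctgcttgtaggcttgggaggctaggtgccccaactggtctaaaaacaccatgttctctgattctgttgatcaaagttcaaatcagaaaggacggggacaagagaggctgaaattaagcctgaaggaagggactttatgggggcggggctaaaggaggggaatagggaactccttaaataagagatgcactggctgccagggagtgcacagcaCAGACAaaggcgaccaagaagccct

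The strings were AGATAA with its variant TGATAA for GATA factors, the E-box CACGTG with its variant CATGTG, the cAMP response element TGACGTCA with its first part TGACG, both GTCTAGAC with the shorter string CAGACA for SMAD proteins, and TGGGAA for RBPJ, the Notch partner. TGACG stood at 3 places in the Tph1 window, and Slc18a2 held the full TGACGTCA across its start, which contains TGACG on both strands. Slc6a4 had TGACG and CATGTG once each, Hdc had CAGACA once and Tph1 had it at 2 places next to each other. Slc18a2 also held AGATAA. Of the 8 windows of 6 members (Maob had no window and was not searched), 4 held TGACG, a string in 20.8% of all 32851 windows of that length. TGACGTCA was in 1.79% of them, CAGACA in 21.0%, CATGTG in 14.2% and AGATAA in 11.2%. TGATAA (9.05% of all windows), CACGTG (7.15%), GTCTAGAC (0.213%) and TGGGAA (25.6%) were in none of the 8. A match is a string of letters and not a bound site.

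Hdc, the histamine-forming enzyme, had a value of 6.62 in control BMMCs, against 5.68 after TGF-beta1, 7.18 after Dll1 coculture and 6.90 in intestinal mast cells. It was thus highest on the Dll1 array and lowest, though still detected, on the TGF-beta1 array. The gap from control to TGF-beta1, 0.93 on the log2 scale or 1.91-fold, was 3.93 times the spread between probe sets but just short of 2-fold. The neighbouring gaps from Dll1 to intestinal (0.28) and from intestinal to control (0.29) were within that spread. Hdc was 2.83-fold higher with Dll1 than with TGF-beta1, and 1.39% of the genes tested differed more. It was 2.33-fold higher in intestinal cells than with TGF-beta1. Hdc is also known in basophils and other myeloid cells. Of 10 basophil markers, Hdc, Fcer1a and Gata2 among them, 10, 9, 9 and 9 were above background in the order above. Their list means were 7.95, 7.74, 8.22 and 7.87. The protease Mcpt8 read 8.50, 7.68, 10.89 and 10.94, also lowest with TGF-beta1 but highest in the intestine. Cd200r3, also on that list, read 8.91, 8.80, 8.58 and 5.13, and so was brightest in control BMMCs. Against TGF-beta1, 3 of 9 tested were called higher with Dll1 and in the intestine (Mcpt8, Il4 and Hdc). In the intestine 2 were called lower (Cd200r3 and Ccr2). Of all genes, 4.09% and 8.62% were called in these comparisons. The share of basophils in the Hdc values was not tested.

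Tph1, which carries out the rate-limiting step of serotonin synthesis, stood at 12.18 in control BMMCs, 12.23 after TGF-beta1, 11.89 after Dll1 coculture and 10.92 in mast cells of the intestine. The 3 cultures lay within 0.34 of each other. As measured, intestinal mast cells stood apart, 2.40-fold below control BMMCs, 2.48-fold below TGF-beta1 and 1.96-fold below Dll1. With the arrays scaled to Kit, Fcer1a and Ms4a2, these log2 differences were -0.42, -0.68 and -0.32. The spreads between probe sets were 0.48, 0.43 and 0.39, so the gaps to control and to Dll1 then lay inside them. The highest value of any probe set was 13.14, and saturation of bright probe sets was not tested. Tph1 also serves the enterochromaffin cells of the gut. Of 13 measured enteroendocrine markers, 4, 2, 4 and 5 were above background in the order control, TGF-beta1, Dll1 and intestinal, none over 6.18, and Chga, Chgb and Tac1, which mark enterochromaffin cells, were below it on all 4 arrays. Tph2, the neuronal enzyme, was below background on every array as well.

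Ddc, which turns the product of Tph1 into serotonin, descended over the arrays, from 8.17 for control to 7.31 for TGF-beta1, 6.09 for Dll1 and 5.30 for the intestine. Every step of that order was larger than the spread between probe sets, and the intestinal value lay just above the background limit of 5.11. The last step, from Dll1 to the intestine, was -0.16 with the limit at the 99th percentile and -0.13 with the arrays scaled to Kit, Fcer1a and Ms4a2, both inside the spread of 0.39. Against control, Ddc was 1.81-fold lower with TGF-beta1, 4.23-fold lower with Dll1 and 7.30-fold lower in the intestine. It was also 2.34-fold lower with Dll1 than with TGF-beta1. With Dll1, the log2 difference from control was -2.08 for Ddc and -0.29 for Tph1, the other enzyme of serotonin synthesis.

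Slc18a2, the transporter that fills the granules, had 11.60 as its control value, 11.36 after TGF-beta1, 11.11 after Dll1 coculture and 9.83 in the intestine. The treated cultures were 1.18-fold and 1.40-fold below control, log2 differences of -0.24 and -0.49 next to spreads between probe sets of 0.24 and 0.34. The intestinal array was 3.41-fold below control, 2.88-fold below TGF-beta1 and 2.43-fold below Dll1. Slc18a1, the vesicular transporter of neuroendocrine cells, was below background on all arrays, between 4.53 and 4.61.

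Slc6a4, the serotonin reuptake transporter, was at 7.59 in control BMMCs but at 4.91 after TGF-beta1, 5.16 after Dll1 coculture and 5.06 in the intestine. The control array was high and the other 3 lay together at the background limit, with gaps of 0.10 and 0.15 that were within the spread between probe sets. Slc6a4 was at least 5.22-fold lower with TGF-beta1, 5.39-fold lower with Dll1 and at least 5.59-fold lower in the intestine. The Dll1 value lay just above its limit of 5.13, so that fold sits close to a bound too. Among genes tested, 0.0915% differed more than Slc6a4 between TGF-beta1 and control, 0.306% between Dll1 and control and 1.62% between intestine and control. Platelets and their precursors also carry Slc6a4. Of 9 measured platelet and megakaryocyte markers, 4, 4, 5 and 4 were above background in the order above, with list means of 6.18, 5.82, 6.15 and 5.43. Of those tested against control, 2 of 4 were called lower with TGF-beta1 (Itgb3 and Vwf), 1 of 5 lower (Itga2b) and 1 higher (Itgb3) with Dll1, and 3 of 4 lower in the intestine (Itga2b, Itgb3 and Vwf). Among all genes tested, 1.4%, 3.42% and 11.2% were called in these comparisons, and 4 or 5 markers are too few for a steady share. Vwf, the von Willebrand factor gene, read 7.23, 6.08, 6.45 and 5.12, and so was highest in control cells, as Slc6a4 was. The platelet chemokines Pf4 and Ppbp were below background on all 4 arrays. The integrin chain Itga2b read 10.30, 10.02, 9.27 and 8.60 and its partner Itgb3 read 7.86, 6.85, 9.26 and 5.71, both above background on all 4 arrays. The part of platelets or their precursors in the Slc6a4 values was not tested.

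Maob, an amine oxidase of the outer mitochondrial membrane, was bright in all cultures, at 11.09 for control, 10.86 for TGF-beta1 and 10.91 for Dll1, and read 7.31 in the intestine. The cultures lay within 0.24 of each other, with each step of their order inside the spread between probe sets. Intestinal cells were 13.7-fold below control, 11.7-fold below TGF-beta1 and 12.1-fold below Dll1, and 0.535% of genes tested differed more between intestine and control. Maoa, the sister enzyme that prefers serotonin, read 4.74, 5.38, 5.07 and 5.38 and passed no 2-fold difference.

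Hnmt, which methylates histamine, read 4.63, 4.64, 4.70 and 4.90 in the order control, TGF-beta1, Dll1 and intestinal. All 4 values lay under the background limits, so no difference in Hnmt was detectable. The other enzyme of histamine breakdown, the diamine oxidase Aoc1, was below background on every array too, at 4.51, 4.50, 4.60 and 4.73.

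The comparison of TGF-beta1 with control BMMCs asked what the cytokine did to cultured mast cells. Slc6a4 was the member called lower, and none was called higher, with 6 of the 7 detected. Over all 12019 genes tested, 1.4% were called, 0.508% higher and 0.89% lower. Hdc (1.91-fold) and Ddc (1.81-fold) fell short of the limit, and 1.71% and 2.20% of the genes tested differed more than they did. The median measured difference over the 7 genes was -0.24, and 0.01 over all genes.

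The comparison of Dll1 coculture with control asked what a Notch ligand did. Ddc and Slc6a4 were called lower, 2 of 6 detected members, against 3.42% of all 12756 genes tested, 1.64% higher and 1.78% lower. Hdc was 1.48-fold higher. The median measured difference was -0.29 over the members and 0.02 over all genes. Hamster feeder cells and bead sorting went with Dll1 and cannot be told apart from it.

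Intestinal mast cells were set against control BMMCs to see how tissue cells differ from cultured ones. Of the 6 detected members, 5 were called lower, namely Maob, Ddc, Slc6a4, Slc18a2 and Tph1, and Hdc differed by 0.29. Over all 12716 genes tested, 11.2% were called, 4.47% higher and 6.74% lower. The median measured difference was -1.77 over the members and 0.00 over all genes. With the arrays scaled to the mean of Kit, Fcer1a and Ms4a2, a setting chosen after the values were seen, Ddc (-2.03), Maob (-2.94) and Slc6a4 (-1.65) stayed past 2-fold. Tph1 (-0.42) and Slc18a2 (-0.93) did not, and Hdc (1.12) became 2-fold higher. That scaling moved the median of all genes by 0.84 and called 4058 of the 12716 genes higher and 222 lower, in place of 569 and 857. Tissue source, digestion and sorting differ together between these arrays and cannot be told apart.

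The comparison of Dll1 with TGF-beta1 called Hdc higher and Ddc lower, 2 of 6 detected members, against 4.09% of 12648 genes, 2.19% higher and 1.9% lower. Slc6a4, Tph1, Slc18a2 and Maob differed by 0.34 or less. These comparisons share arrays, so they are not separate evidence. Against TGF-beta1, intestinal cells had Hdc higher and Tph1, Ddc, Slc18a2 and Maob lower, 5 of 5 detected members, where 8.62% of 12544 genes were called, 4.06% higher and 4.56% lower. With the scaling to mast cell receptor genes, 3 of them (Hdc, Ddc and Maob) remained, where 2075 of the 12544 genes were called higher and 208 lower. Against Dll1, intestinal cells had Maob and Slc18a2 lower, 2 of 6 detected members, where 7.7% of 13028 genes were called, 3.56% higher and 4.14% lower. With that scaling Maob alone remained (-2.94), where 2382 of the 13028 genes were called higher and 187 lower. As measured, the intestinal array lay nearer to the Dll1 array than to control for Ddc (0.79 against 2.87 on the log2 scale). For Maob (3.59 against 3.78) it lay about as far from both.

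**Figure D2:**
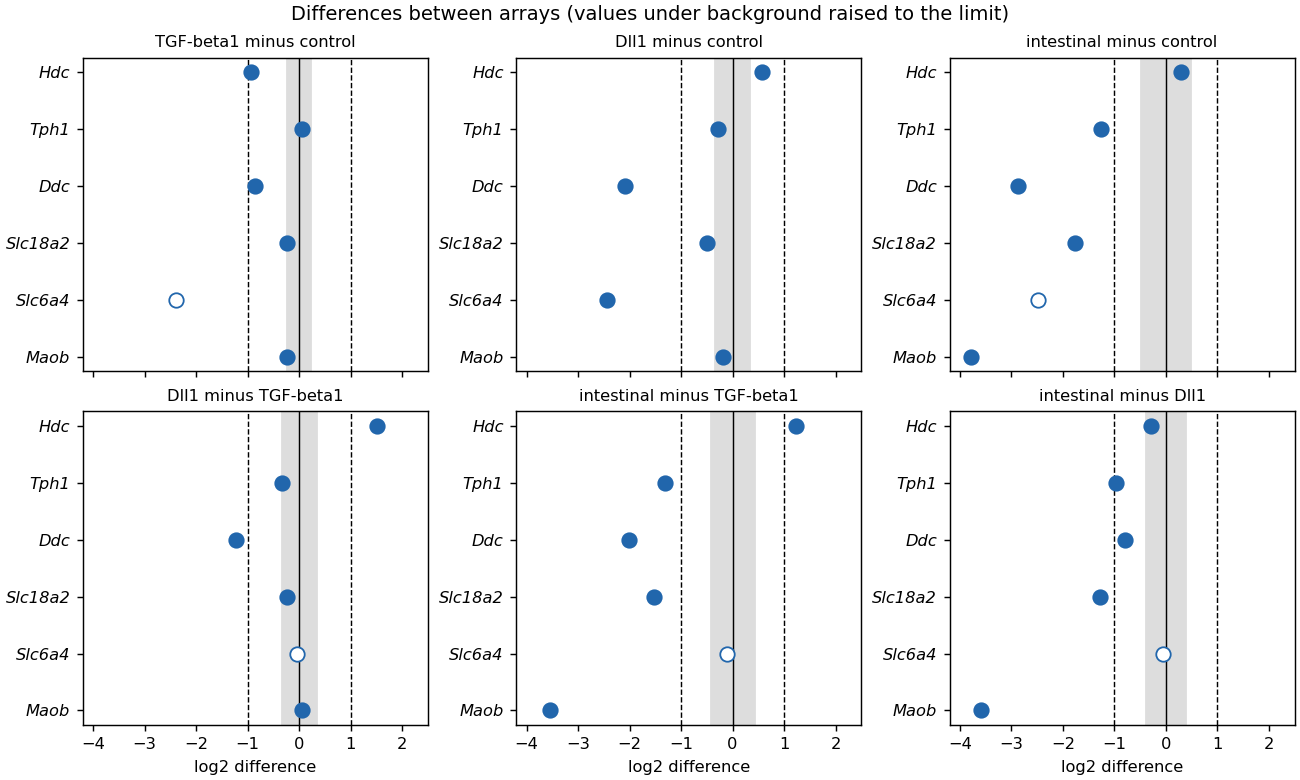
Log2 difference (horizontal axis) of 6 members in each of the 6 comparisons, with values under background raised to the limit. Open circles have 1 or both sides under the limit, the grey band is the standard deviation between probe sets of a gene and dashed lines mark 2-fold. Maob lies at -3.54 to -3.78 in the 3 comparisons with the intestinal array and within 0.24 of 0 in the others.

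**Figure D3:**
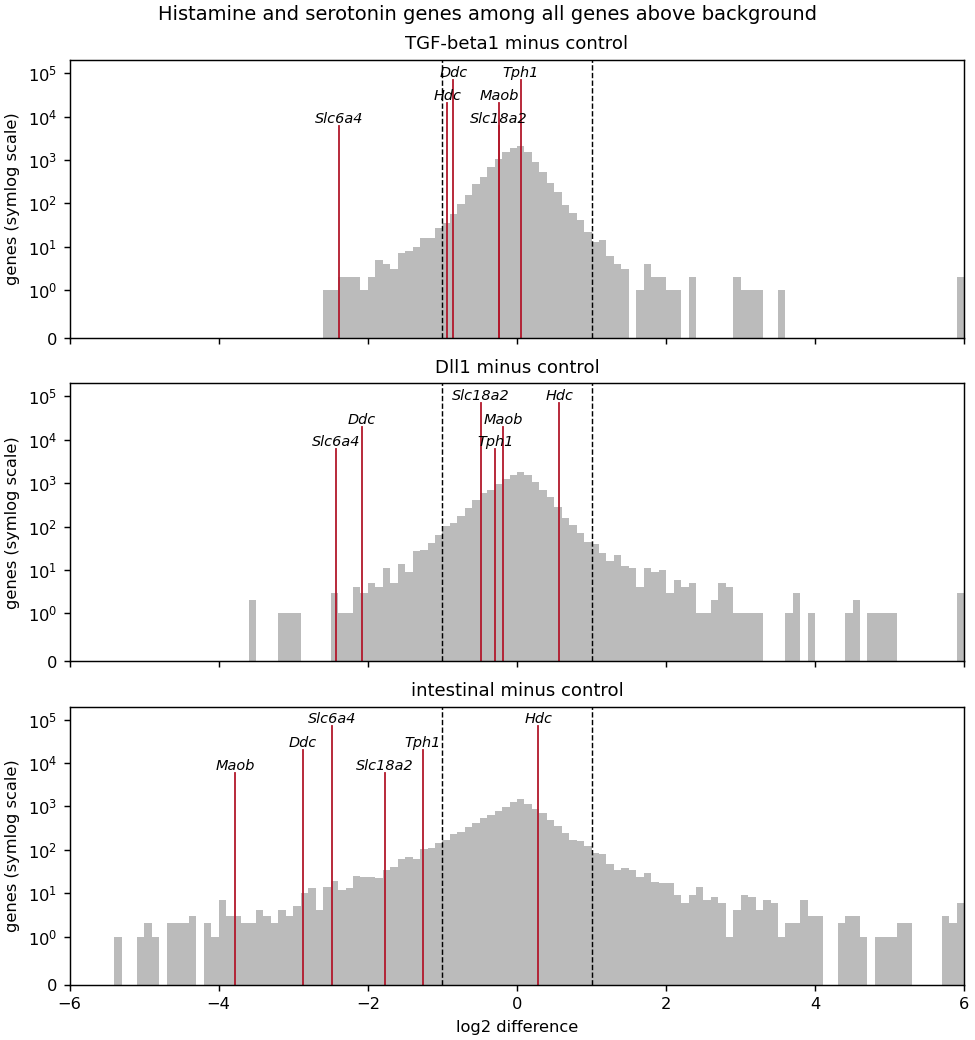
Number of genes (vertical axis, logarithmic above 1 and linear below) by log2 difference (horizontal axis) for all genes tested against control, with red lines at the detected members and dashed lines at 2-fold. Differences beyond 6 are drawn in the last bin. Slc6a4 lies in the lower tail in all 3 panels, Ddc with Dll1 (-2.08) and in the intestine (-2.87), and Maob only in the intestine (-3.78).

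The likeness of profiles was measured as the distance between log2 values over the 4 arrays, each gene centred on its own mean, so that 0 is an identical course. Among the 6 detected members, Tph1 and Slc18a2 were nearest (0.37), followed by Ddc and Slc18a2 (1.18), and Hdc and Maob were farthest apart (3.65). Among the other 13317 detected genes, the nearest to Tph1 were Il4ra (0.05), the interleukin-4 receptor chain, St6galnac6 (0.07) and Leprot (0.09). The nearest to Slc18a2 were the actin-capping gene Capg (0.08), Sav1 (0.10) and Card19 (0.11). Maob ran closest to Cd200r3 (0.19), Plxdc2 (0.21) and Gpr176 (0.33), Ddc to Atp8b1 (0.28), Nav1 (0.32) and Sgcb (0.37), and Hdc to 5830418P13Rik (0.15), Rcsd1 (0.23) and Tpst2 (0.25). Slc6a4 had no near neighbour at such distances, with the complement regulator Cd59a at 0.42, the elastase Mmp12 at 0.60 and Efcc1 at 0.90. Cd59a read 7.24, 5.08, 5.15 and 4.79 in the order control, TGF-beta1, Dll1 and intestinal. With 4 arrays, such a ranking describes these arrays only.

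**Figure D4:**
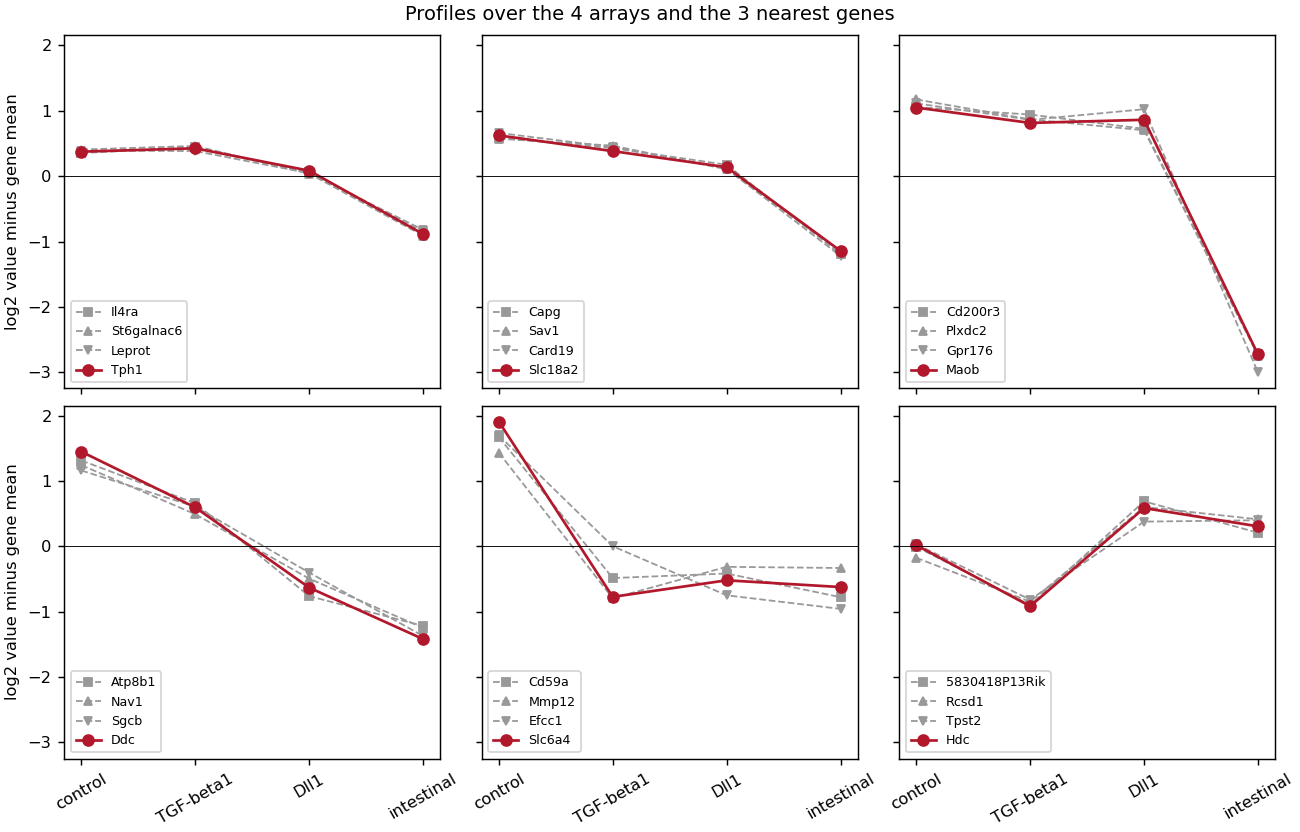
Log2 value minus the gene's mean (vertical axis) over the 4 arrays for each detected member (red) and its 3 nearest genes (grey). The curves of Tph1 and Slc18a2 are alike and drop at the intestinal array, that of Slc6a4 drops after control, and that of Hdc is lowest with TGF-beta1.

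Other enzymes and transporters of the amine pathway, from a list that leaves the members out, ranged from undetected to bright, up to 12.13 (Slc7a8, control). Of 22 measured genes, 11, 12, 9 and 12 were above background on the control, TGF-beta1, Dll1 and intestinal arrays. Of all 22180 genes, 11666, 11251, 12323 and 12134 were. No gene of that list was called with TGF-beta1 or Dll1 against control, among 13 and 12 tested. In these comparisons 1.4% and 3.42% of all genes were called, so a list this short would hold few or none. In intestinal cells 2 of 13 were lower, the aldehyde dehydrogenases Aldh2 (2.15-fold) and Aldh3a2 (3.23-fold). That count is near the background of this comparison, where 11.2% of all genes were called. The second probe set of Aldh2 read 9.45 in control and 8.45 in intestinal cells, just short of 2-fold. That of Aldh3a2, near background, read 5.52 in control and 5.27 in intestinal cells. The plasma membrane monoamine transporter Slc29a4 stayed between 5.34 and 5.42.

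Tph1 needs tetrahydrobiopterin, whose first enzyme is Gch1 and whose feedback regulator is Gchfr, and both decarboxylases need pyridoxal phosphate, made by the kinase Pdxk. Gch1 had 8.10 as its control value, 8.35 after TGF-beta1, 7.07 after Dll1 coculture and 6.54 in the intestine. It was 2.05-fold lower with Dll1 and 2.97-fold lower in the intestine. Gchfr read 8.44, 7.19, 7.63 and 6.48, which was 2.37-fold lower with TGF-beta1 and 3.88-fold lower in the intestine. Pdxk read 9.36, 8.15, 9.37 and 8.65 and was low on the TGF-beta1 array, by 2.31-fold against control. In all, 2 of 8 tested cofactor genes were lower with TGF-beta1, 1 of 9 with Dll1 and 2 of 8 in the intestine, and none was higher. Over all genes tested, 0.89%, 1.78% and 6.74% were called lower in these comparisons, and with lists this short a few genes make the share.

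Among 18 receptors for histamine and serotonin, Hrh4, the histamine receptor of mast cells and other blood cells, was at 10.03 in control BMMCs, 8.27 after TGF-beta1, 9.77 after Dll1 coculture and 7.82 in the intestine. It was high in control and Dll1 cells and 3.39-fold and 4.64-fold lower with TGF-beta1 and in the intestine. Hrh2 read 5.94, 4.86, 5.48 and 5.11, near background, and Hrh1 was detected on the Dll1 array alone (5.25). The brighter probe set of Hrh3 stayed between 5.22 and 5.52, and the other was below background on all 4 arrays (4.69 to 4.89). Of 14 serotonin receptors, Htr1b was the one called, at least 2.56-fold higher with Dll1 than in control (6.47 against 5.04). Over the 18 genes, 1 of 5 tested was called with TGF-beta1, 1 of 7 with Dll1 and 1 of 4 in the intestine, where 1.4%, 3.42% and 11.2% of all genes were called.

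Amines are held in the granule by sulfated sugar chains, heparin among them, on the proteoglycan serglycin (Srgn). Srgn stayed between 11.52 and 11.57 on all arrays. Ndst2, the sulfotransferase needed for mast cell heparin, read 11.21, 10.93, 10.49 and 8.48 and was 6.64-fold lower in intestinal than in control cells. The proton pump subunit Atp6v0a1, of the pump that drives vesicular amine uptake, read 7.63, 7.21, 7.37 and 5.58 and was 4.14-fold lower there. Ndst2 and Atp6v0a1 were the 2 of 10 tested storage genes called in the intestine, where 11.2% of all genes were. None was called with TGF-beta1 or Dll1 against control, where 1.4% and 3.42% of all genes were. Among 13 measured regulators, none was called with either treatment against control, next to the same 1.4% and 3.42%. In the intestine Gata1, an erythroid and mast cell factor, was 3.07-fold lower and Hes1, Smad7 and Klf4 were higher, 4 of 12 tested next to the same 11.2%. Gata2, a factor of mast cell identity, read 10.54, 10.48, 9.86 and 10.41, and Mitf read 8.92, 8.26, 9.04 and 8.29.

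**Figure D5:**
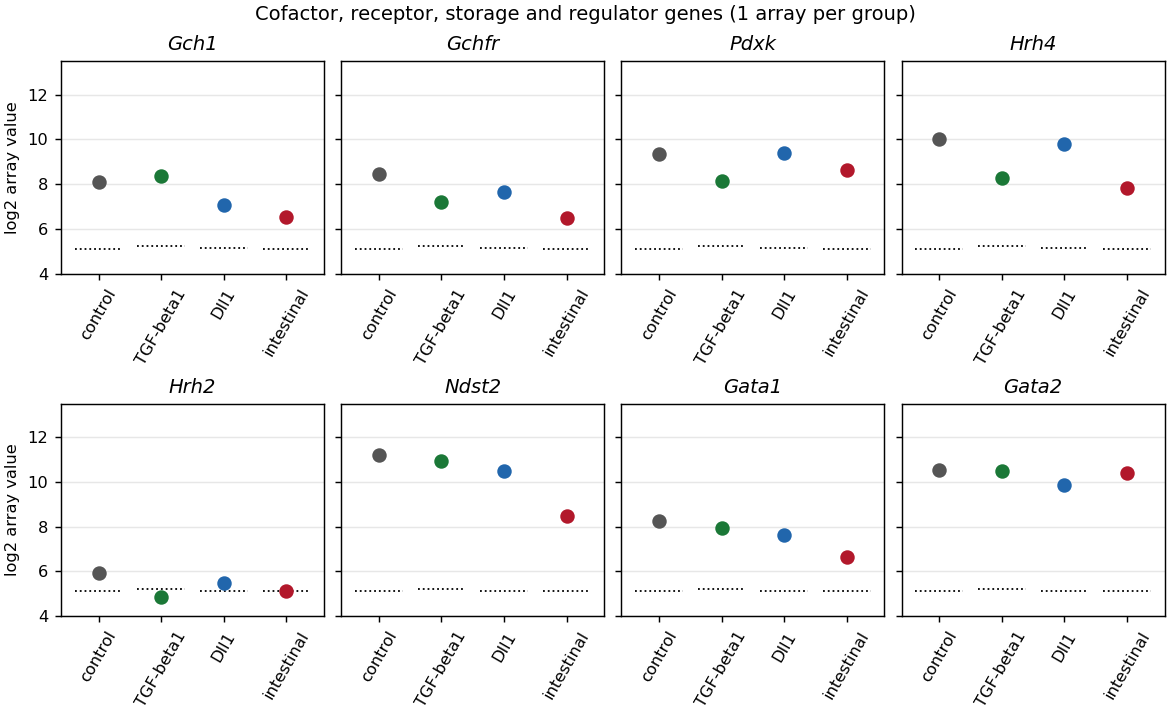
Log2 array value (vertical axis) of 8 related genes in the 4 groups, with 1 point for each array and a dotted line at its background limit. Hrh4 and Pdxk were lower with TGF-beta1 than in control and Dll1 cells, Gch1 was lower with Dll1 and in the intestine, and Ndst2 and Gata1 were lowest in the intestine.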

How the data were processed

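Total RNA was amplified from 2 ng with a whole-transcript kit and hybridised to Affymetrix arrays, per the labels' protocols. The authors deposited log2 values of 33793 probe sets for 4 arrays. How they were summarised and normalized, and on which build, is not given in the sources used here. Sorted, the 4 columns differed by a mean of 0.055 and a maximum of 0.25, and were used as deposited. Symbols came from the platform annotation, which gave 1 symbol to 23521 probe sets, several to 1814 (not used) and did not list 8458. For genes with several probe sets, the brightest over the 4 arrays was used. The background limit of an array was the 95th percentile of 1438 olfactory, vomeronasal and taste receptor probe sets. Arrays have no read depth, and having 4 of them limits the precision.

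With 1 array a group, differences are sizes and the call rule is at least 2-fold. It was tested on simulated data, where all 200 genes changed by 3 on the log2 scale among 22180 were recovered in each of the 6 comparisons. That change is well past 2-fold, so its recovery does not gauge calls nearer the limit, such as Tph1 in the intestine (-1.26 against control). Of the unchanged genes, the rule called 0, 43 and 289 when TGF-beta1, Dll1 and intestinal cells were set against control. It called 30 and 116 when Dll1 and intestinal cells were set against TGF-beta1, and 126 for the intestine against Dll1. Variation between cultures or animals was not measured, so the simulation could not include measured values of it. These counts are therefore not rates of false calls in the data. The members and gene lists were chosen with earlier results of these data known. The named genes were the members, up to 6 genes a list past 2-fold, 16 genes set by role whatever their values, up to 4 of each marker list and the 3 nearest genes by profile. The defining markers of other cells and the genome neighbours were named for their identity. Tools were Python 3.11.15, numpy 2.4.6 and pandas 2.3.3. As alternatives, array medians were subtracted, quantile normalization was repeated, background limits were set at the 90th or 99th percentile or left out, 16 was subtracted before taking log2, and a gene's probe sets were averaged. Scaling to Kit, Fcer1a and Ms4a2 was added after the data were seen.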

Additional observations from a re-analysis of the deposited data

How the results depend on the processing

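No paired analysis was possible because each group has 1 array. The members called were the same in all 6 comparisons with array medians subtracted, with quantile normalization repeated and with the other background limits or none. Averaging probe sets could not move a member, since each has 1. With the offset of 16 subtracted, Hdc joined Slc6a4 as lower with TGF-beta1, for 2 members in place of 1 (Hdc -1.22), and Ddc was added for intestinal minus Dll1. Scaled to Kit, Fcer1a and Ms4a2, 3 members in place of 5 were called for intestinal minus TGF-beta1 and 1 in place of 2 for intestinal minus Dll1. For intestinal minus control, 4 were called in place of 5, with Hdc in and Tph1 and Slc18a2 out. No called difference of a member changed sign. With array medians subtracted, all genes called for Dll1 minus control were 175 higher and 316 lower in place of 209 and 227. With a background limit at the 99th percentile, the Slc6a4 bound for TGF-beta1 minus control was -1.74 in place of -2.38 on the log2 scale. Ddc for intestinal minus control was -2.24 in place of -2.87. Low signal thus limits the fold of Slc6a4 and of Ddc in the intestine.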

Other observations

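The protein-coding genes next to the members in RefSeq's order on GRCm38.p6 were read as a description, taking up to 2 on each side. Of 28 such neighbours with a probe set, 18 were above background on at least 1 array. None was called with TGF-beta1 against control, 1 was with Dll1 and 1 in intestinal cells. In these comparisons 1.4%, 3.42% and 11.2% of all genes tested were called, so few calls say little about the loci. On either side of Slc6a4, the hydrolase gene Blmh read 8.75, 8.34, 8.14 and 8.33 and the splicing gene Nsrp1 read 6.89, 6.63, 6.52 and 6.86 in the order control, TGF-beta1, Dll1 and intestinal. With Dll1, the flippase gene Atp8b4 near Hdc was the neighbour called higher (5.32 in control, 6.47 with Dll1). In intestinal cells, Cobl, an actin nucleator gene near Ddc, was the neighbour called lower (9.47 in control, 7.86 in the intestine). Ikzf1, on the other side of Ddc, read 8.54 in control and 9.03 in the intestine, and Grb10 next to Ddc was below background on every array.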
